A study of Nasonia vitripennis with 6 samples.

Results

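The genes described here are the histones and the chromatin modifying genes of the parasitoid wasp *Nasonia vitripennis*, measured by RNA-seq in the venom gland (VG), the organ that makes the venom injected into the host, and in the ovary. They are the gene models of the official gene set version 2 whose annotation contains the words histone, chromatin, chromodomain, bromodomain, polycomb, SWI/SNF, chromobox or nucleosome, without the words zinc finger. This gave 188 of 36329 genes. A further search word for DNA methyltransferases, DNA (cytosine, brought in 0 genes. The members comprised 95 histone models and 93 other genes, which fell into chaperones and histone supply (8), histone methyltransferases (21), demethylases (11), acetyltransferases and their partners (6), deacetylases and their partners (7), remodelling genes (20), polycomb genes (10), chromobox, chromodomain and bromodomain readers (8) and 2 others. The VG and the ovary were each represented by 3 libraries from the Lab II strain, and each library pooled tissue of 40 to 50 females. All females of both groups were 1 to 3 days old, mated and exposed to hosts, so neither tissue was taken from virgin or unexposed wasps. Both groups are whole dissected organs and hold several cell types, so fewer cells of a type and less RNA per cell cannot be told apart.

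Core histones H2A, H2B, H3 and H4 form the octamer around which DNA is wrapped, and the linker histone H1 binds the DNA between octamers. Most of them are made during DNA replication from clustered, near-identical genes, whereas replacement variants such as H2A.V and H3.3 are made throughout the cell cycle. Chaperones hand histones to DNA, methyltransferases and acetyltransferases write marks on histone tails, demethylases and deacetylases remove them, and remodellers move nucleosomes with ATP. In wasps the ovary is rich in dividing germ cells and in polyploid nurse cells that load the egg with maternal RNA. The libraries were enriched with poly-T beads, and in animals the RNAs of replication-dependent histone genes end in a stem-loop in place of a poly(A) tail. Reads that align to several copies or overlap several models were not assigned to a gene by the counting used, so the value of a single histone copy is uncertain. The part of these features in the results was not tested.

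Values are read counts divided by a size factor per library, here called normalised read counts. They were not divided by gene length, so levels of single genes are compared between tissues and not between genes. Class sums and shares of a class add these counts as they are. They therefore also depend on gene length and are given only to set the tissues side by side. A tissue mean below about 1000 in the VG and 100 in the ovary could be taken apart into the reads of its 3 libraries, here lettered a, b and c within a tissue and not tied to the replicate numbers. A read raised a VG mean by 0.635 to 1.16 and an ovary mean by 0.129 to 0.145, so low levels were measured less finely in the VG. The floor was set at 3 reads, worth a mean of 3.49 in the VG and 0.435 in the ovary, for counting error only. The 79 venom protein encoding genes took 53.1% of all normalised counts in the VG and 0.195% in the ovary. Scaling both tissues to totals without these genes would lower every log2 ratio of VG over ovary given here by 1.28, and the 8532 genes that reached a mean of 10 in the VG and in the ovary alike had a median log2 ratio of -0.27. The ovary markers were low in the VG. Oskar, which anchors the germ plasm, averaged 8.25 in the VG and 5422 in the ovary, and vitellogenin receptor, which takes yolk into the oocyte, averaged 248 in the VG and 22643 in the ovary.

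Most histone and chromatin genes with a measurable difference had lower levels in the VG than in the ovary. Of the 188 members, 31 had no read in either tissue, 16 were under the floor in both and 5 lay above it only in the ovary, at a level too low to set against the VG. For the other 136 the log2 ratio of VG over ovary had a median of -1.22. The VG mean was at least 2-fold lower for 77 of them (56.6%), where 29.8% of all 14219 genes with a ratio were, and at least 2-fold higher for 15, where 36.8% of all genes were. The median over all genes was 0.13. The shares of 29.8% lower and 36.8% higher are the background for each class count below. Held to a mean of 10 or more in either tissue, 75 of 126 members were at least 2-fold lower and 14 at least 2-fold higher, where all such genes gave 33.9% and 33.1%. Of 58 histones with a ratio, 26 were at least 2-fold lower in the VG and 12 at least 2-fold higher, with a median of -0.72. Of 78 other genes, 51 were lower, 3 were higher and the median was -1.45. The histone median turned to 0.06 when genes under the floor were included. These are descriptions of tissue means with no test. Reads of all 6 libraries were resolved for 60 members, which are those with low ovary means. Among them the 3 VG libraries lay below all 3 ovary libraries for 28 and above for 11, while over all 7733 such genes the shares were 23.3% and 40.3%.

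**Figure D1:**
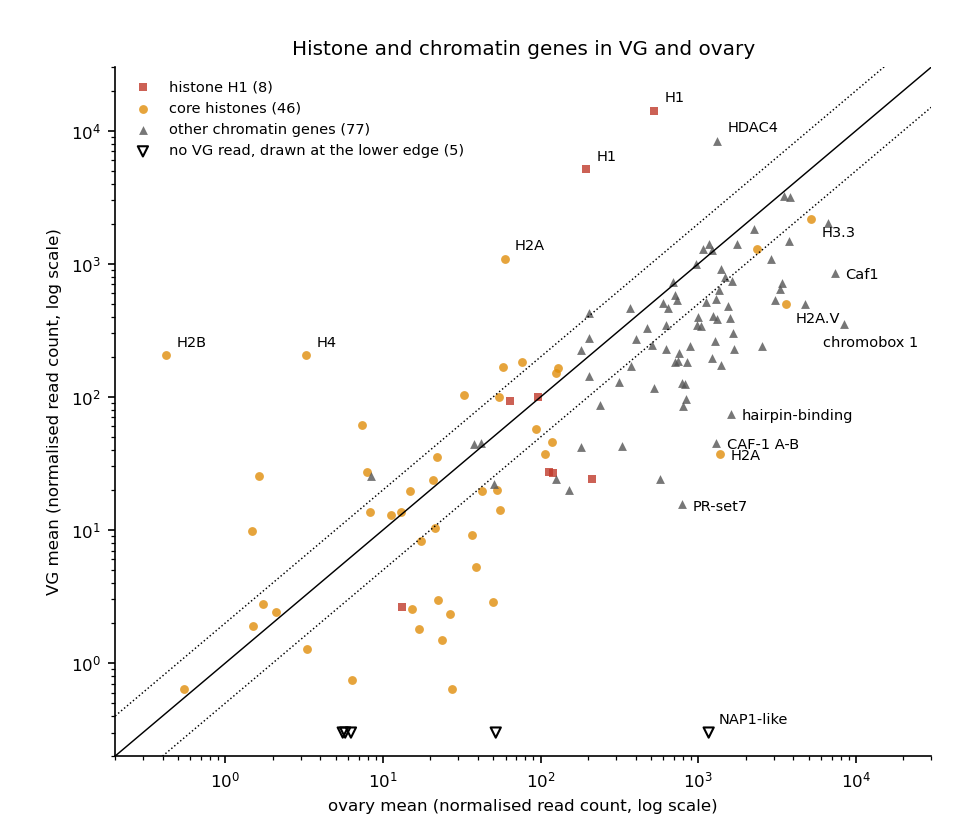
VG mean against ovary mean (normalised read counts, both axes logarithmic) for the members with a ratio. Points are gene models, the solid line marks equal means, the dotted lines mark 2-fold differences, and open triangles at the lower edge are the 5 genes without a VG read. Most other chromatin genes lie below the line, whereas a pair of H1 models and histone deacetylase 4 stand far above it. Some core histone models also stand far above it, among them H2B Nasvi2EG005045, H4 Nasvi2EG001032 and H2A Nasvi2EG001072.

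Linker histone H1 reads came in the VG almost entirely from a pair of models. The H1 model Nasvi2EG005285 averaged 14119 in the VG and 526 in the ovary, and its numbering neighbour Nasvi2EG005286, also annotated as H1, averaged 5147 in the VG, against 193 in the ovary. Their log2 ratios were nearly equal, at 4.75 and 4.74, which is 26.8-fold and 26.7-fold. Both means are too high to be resolved into libraries, so their spread between replicates is not known. The annotation of each model of the pair carries a match of 65%. Nasvi2EG008673, Nasvi2EG008994, Nasvi2EG029848 and Nasvi2EG036228, also annotated as H1, carry 86% to 88%. Whether the pair are H1 genes like the others was not tested. The pair made up 98.6% of the summed H1 level of the VG, against 53.8% of that of the ovary. Without it, the remaining 8 H1 models summed to 276 in the VG and 618 in the ovary, a log2 ratio of -1.16 and so in the opposite direction.

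These other H1 models were mostly lower in the VG. Nasvi2EG036228 had 26.7, 15.5 and 38.3 normalised counts in VG libraries a, b and c, against 101, 109 and 150 in ovary libraries a, b and c. Nasvi2EG008772 had 21.0, 8.88 and 52.3 in the VG libraries, against 92.1, 117 and 132 in the ovary libraries. In both genes every VG library lay below every ovary library, with log2 ratios of -2.16 and -2.05. Nasvi2EG008994 had 21.0, 6.66 and 45.3 in the VG libraries, against a mean of 210 in the ovary (log2 ratio -3.11). VG library b was the lowest VG library in all 3 of these genes. Nasvi2EG029848 rested on 3 VG reads against 96 ovary reads, which gives a log2 ratio of -2.46 with a 95% counting interval from -4.76 to -0.87. Nasvi2EG008673 averaged 93.8 in the VG and 64.3 in the ovary, with overlapping libraries. The last model with a ratio, Nasvi2EG001062, averaged 99.2 in the VG and 96.2 in the ovary and overlapped too.

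H2A models went to both extremes. Of 24 models, 14 had a ratio, 9 of these were at least 2-fold lower in the VG (64.3%) and 2 at least 2-fold higher. Among all genes with a ratio, 29.8% were lower and 36.8% higher. The median log2 ratio of H2A was -2.43. H2A.V (Nasvi2EG013905), the replacement variant that in *Drosophila* does the work of both H2A.Z and H2A.X, had 640.5, 271 and 586 normalised counts in the VG libraries and an ovary mean of 3579 (log2 ratio -2.84). Nasvi2EG004666, annotated as H2A.J, had 30.5, 64.4 and 17.4 in the VG libraries and an ovary mean of 1381 (log2 ratio -5.20). This pair made up 28.4% of the summed H2A level of the VG, against 91.8% of that of the ovary. The VG libraries of both models lay far below the ovary mean.

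Another model annotated as H2A.J, Nasvi2EG001072, had the most reads of the H2A models in the VG. It had 919, 1241 and 1119 normalised counts in VG libraries a, b and c, against 52.6, 57.9 and 66.5 in ovary libraries a, b and c. The libraries did not overlap, and the VG mean was 18.5-fold higher (1093 ± 163 against 59.0 ± 7.02, SD, n = 3 each). Nasvi2EG004746 had 135, 280 and 129 in the VG libraries, against 81.7, 71.7 and 75.7 in the ovary libraries. Its groups did not overlap either, but its log2 ratio of 1.25 (2.38-fold) would turn negative on totals without the venom genes. Nasvi2EG035716 had 0 reads in all 3 VG libraries and 50.3, 46.2 and 59.1 normalised counts in the ovary libraries, which makes the VG level at least 14.9-fold lower. Nasvi2EG036230 had 1.91, 6.66 and 0 in the VG libraries, against 49.5, 41.7 and 58.3 in the ovary libraries (log2 ratio -4.13). Nasvi2EG000768 averaged 12.9 in the VG and 11.3 in the ovary, with overlapping libraries. Across the 20 models annotated as H2A.J, 13 had a ratio, and these ran from -5.20 to 4.21 on the log2 scale, so copies with 1 annotation did not share a direction.

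H2B was the one core histone class with a median above 0. Of 21 models, 14 had a ratio, 5 were at least 2-fold higher in the VG and 3 at least 2-fold lower, beside 36.8% and 29.8% of all genes with a ratio, and the median log2 ratio was 0.70, which turns negative on totals without the venom genes. The summed level was 796 in the VG and 440 in the ovary. Nasvi2EG005045 had the largest ratio of any member. It had 97, 151 and 28 reads in the VG libraries, against 1, 0 and 2 reads in the ovary libraries, or 185, 335 and 97.6 normalised counts in the VG libraries against 0.387, 0 and 0.870 in the ovary libraries. On pooled reads its log2 ratio was 9.07 with a 95% counting interval from 7.50 to 11.35, since the ovary value rests on 3 reads. This 1 gene held 25.9% of the summed H2B level in the VG.

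The other H2B models that were higher in the VG were less extreme. Nasvi2EG036231 had 128, 184 and 188 normalised counts in the VG libraries, against 55.3, 51.4 and 65.2 in the ovary libraries (log2 ratio 1.54). Nasvi2EG004747 had 76.3, 140 and 94.1 in the VG libraries, against 27.1, 36.03 and 34.4 in the ovary libraries (log2 ratio 1.67). In both, all VG libraries were above all ovary libraries. The same held for Nasvi2EG001071, with a mean of 27.1 in the VG and 7.91 in the ovary (log2 ratio 1.77), and for Nasvi2EG004959, with 25.4 in the VG and 1.65 in the ovary (log2 ratio 3.95). On totals without the venom genes Nasvi2EG036231, Nasvi2EG004747 and Nasvi2EG001071 fall to 0.26, 0.39 and 0.49, under 2-fold. Nasvi2EG004959 then stays at 2.67. The H2B models that were lower in the VG were Nasvi2EG008770, with 41.9, 46.6 and 48.8 in the VG libraries against 108, 109 and 139 in the ovary libraries, Nasvi2EG008670, with 3 VG reads against 112 ovary reads, and Nasvi2EG008646. The last had means of 10.4 in the VG and 21.3 in the ovary, and its libraries overlapped.

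H4 models went in both directions too. Of 20 models, 12 had a ratio, 3 were at least 2-fold higher in the VG and 4 at least 2-fold lower (33.3%). Over all genes with a ratio 36.8% were higher and 29.8% lower, so the H4 share that was lower is near that of all genes. The median log2 ratio of H4 was -0.25. The summed H4 level was 468 in the VG and 230 in the ovary, a log2 ratio of 1.02 that turns negative on totals without the venom genes. Nasvi2EG001032 had 278, 31.1 and 307 normalised counts in the VG libraries, against 2.71, 4.05 and 3.04 in the ovary libraries. Every VG library was above every ovary library (log2 ratio 5.97), but VG library b was far below the other VG libraries, at 14 reads where libraries a and c had 146 and 88. Nasvi2EG004744 was even, with 49.6, 59.96 and 73.2 in the VG libraries, against 8.13, 6.48 and 7.39 in the ovary libraries (log2 ratio 3.05). The H4 model with the most ovary reads, Nasvi2EG001065, had 151, 233 and 108 in the VG libraries, against 130, 128 and 130 in the ovary libraries, and the tissues overlapped. Nasvi2EG036226 overlapped as well, with means of 19.6 in the VG and 14.9 in the ovary. Nasvi2EG008671 and Nasvi2EG008644 had 2 VG reads each, against 173 and 194 ovary reads, and their log2 ratios on pooled reads were -3.89 (95% counting interval -6.95 to -2.02) and -4.06 (-7.11 to -2.18).

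**Figure D2:**
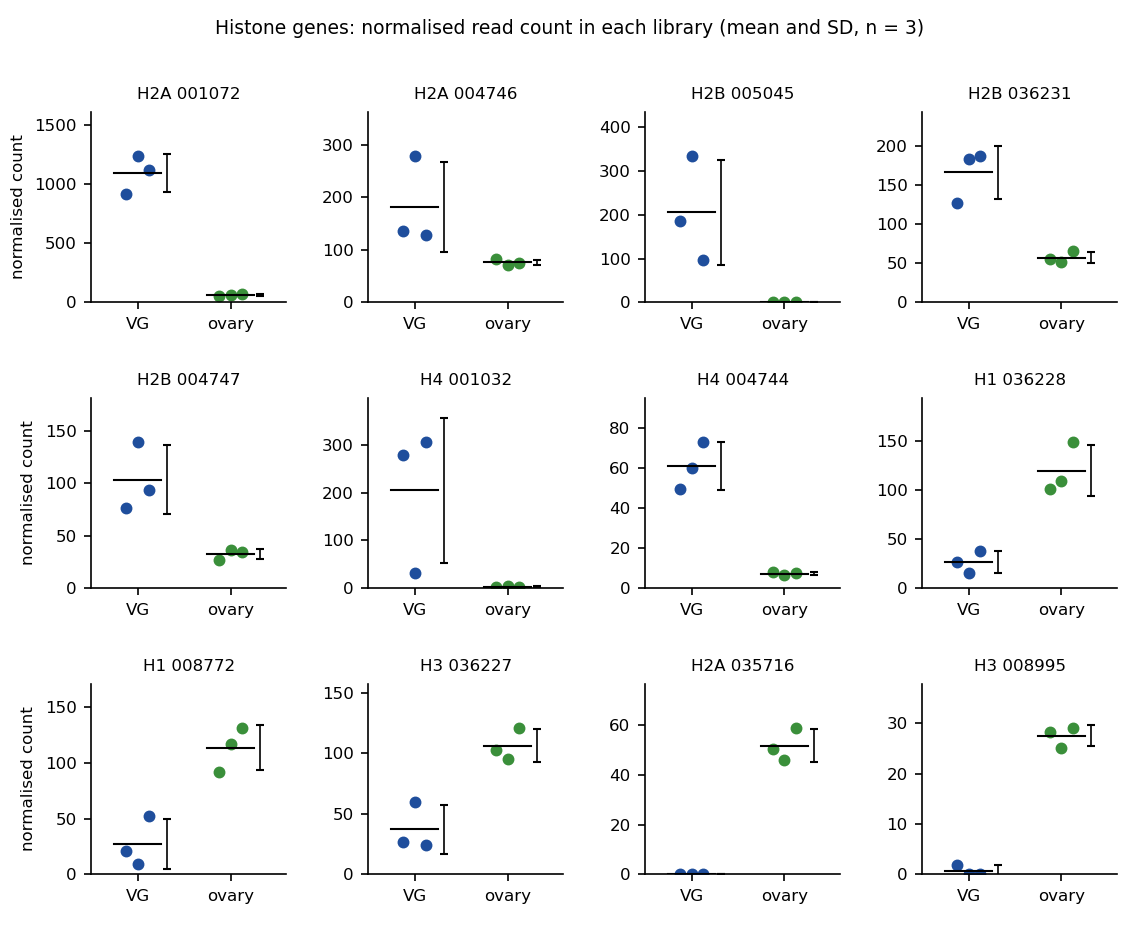
Normalised read count of 12 histone models in each of the 3 VG libraries (left, blue) and 3 ovary libraries (right, green). Horizontal lines are means and error bars are SDs, and each panel has its own axis starting at 0. The tissues overlap in none of these 12 models, which were chosen after their values were seen, and the VG libraries of H4 Nasvi2EG001032 and H2B Nasvi2EG005045 are widely spread.

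H3 had no model that was at least 2-fold higher in the VG. Of 20 models, 10 had a ratio and 6 were at least 2-fold lower, with a median log2 ratio of -1.10. Nearly the whole signal came from the numbering neighbours Nasvi2EG008914 and Nasvi2EG008913, both annotated as H3.3. That is the name of the replacement variant placed on DNA outside replication. The annotation was given to 19 of the 20 H3 models, so it does not single out this pair. Nasvi2EG008914 averaged 2181 in the VG and 5163 in the ovary, a log2 ratio of -1.24. Nasvi2EG008913 averaged 1283 in the VG and 2350 in the ovary, a log2 ratio of -0.87. Together they made up 93.2% of the summed H3 level in the VG and 95.0% in the ovary, and whether they are parts of 1 gene cannot be told from the files used here. Nasvi2EG036227 had 26.7, 59.96 and 24.4 in the VG libraries, against 103, 95.1 and 121 in the ovary libraries (log2 ratio -1.52). Nasvi2EG004745 had 7.63, 31.1 and 20.9 in the VG libraries, against 56.9, 43.3 and 58.3 in the ovary libraries (log2 ratio -1.41). Both had VG libraries entirely below the ovary libraries. Nasvi2EG008995 had 1 read over the VG libraries against 202 over the ovary libraries, a log2 ratio of -5.12 with a 95% counting interval from -10.43 to -2.62. Nasvi2EG012944, annotated as H3 with a match of only 21%, averaged 151 in the VG and 125 in the ovary. Nasvi2EG008672 averaged 13.7 in the VG and 13.01 in the ovary, and the libraries overlapped in both genes.

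As a class, core histones summed to 6871 in the VG and 13977 in the ovary, a log2 ratio of -1.02. All histones together summed to 26413 in the VG and 15314 in the ovary, a log2 ratio of 0.79, because of the H1 pair, and this sign turns on totals without the venom genes. Of 51 histones with reads resolved in all 6 libraries, 23 had VG libraries entirely below the ovary libraries, 10 entirely above and 18 overlapped. Over all 7733 genes resolved in this way, 23.3% had VG libraries entirely below and 40.3% entirely above. In these libraries the summed H2B level was 625, 1035 and 718 in the VG, against 414, 387 and 519 in the ovary. The summed H3 level without Nasvi2EG008914 and Nasvi2EG008913 was 246, 266 and 244 in the VG, against 390, 361 and 426 in the ovary. Both sums separated the tissues, in opposite directions, and the H2B direction turns on totals without the venom genes.

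Histone models lay in runs of nearby gene numbers, and copies within 1 run differed. Whether neighbouring numbers are neighbours on a chromosome was not checked, as the gene set was not matched to a genome here. The run of 8 consecutive numbers Nasvi2EG036224 to Nasvi2EG036231 held H2B, H2A, H4, H3, H1, H4, H2A and H2B. Of these, 3 were at least 2-fold lower in the VG and 1 at least 2-fold higher, and the summed level was 376 in the VG and 429 in the ovary. Its last models, the H2A Nasvi2EG036230 and the H2B Nasvi2EG036231, had log2 ratios of -4.13 and 1.54. Nasvi2EG004744 to Nasvi2EG004747 was 1 set of the 4 core histones, in which H4, H2A and H2B were at least 2-fold higher in the VG and H3 at least 2-fold lower. On totals without the venom genes only H4 stays at least 2-fold higher, at a log2 ratio of 1.77. H2A then falls to -0.03 and H2B to 0.39. In Nasvi2EG008644 to Nasvi2EG008647 all 4 core histones were at least 2-fold lower in the VG, with sums of 37.5 in the VG, against 129 in the ovary. The run Nasvi2EG016473 to Nasvi2EG016479 had 7 models and 1 ovary read in all.

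**Figure D3:**
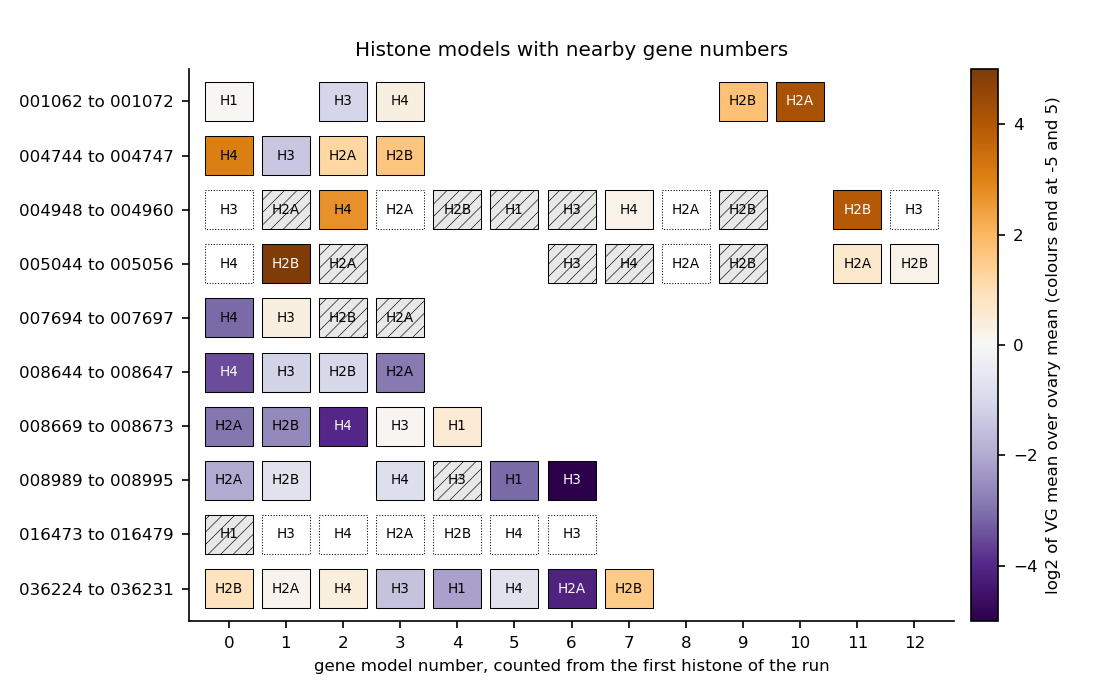
Histone models of the runs with at least 4 histones, 1 row per run, placed by gene model number. Colour is the log2 ratio of VG over ovary, from purple (lower in the VG) to orange (higher), hatched boxes had reads but no ratio and dotted boxes no read. The run that starts at Nasvi2EG008644 has only purple boxes, whereas those that start at Nasvi2EG004744 and Nasvi2EG036224 hold both colours.

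Genes that supply and place histones were low in the VG as a group. Of 8 members, 7 had a ratio, 6 were at least 2-fold lower in the VG and the median log2 ratio was -3.39. The histone RNA hairpin-binding protein (Nasvi2EG005729), which binds the stem-loop of replication-dependent histone RNAs, had 59.1, 111 and 52.3 normalised counts in the VG libraries and an ovary mean of 1618 (log2 ratio -4.45). The chromatin assembly factor 1 subunit A-B (Nasvi2EG013225), part of the chaperone that places new H3 and H4 behind the replication fork, had 34.3, 66.6 and 34.9 in the VG libraries and an ovary mean of 1302 (log2 ratio -4.85). Both genes were highest in VG library b. The partner subunit B (Nasvi2EG010911) averaged 128 in the VG, against 784 in the ovary.

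The other chaperones followed the same direction. Caf1 (Nasvi2EG019969), a histone-binding protein shared by several chromatin complexes, had 784, 1110 and 662 in the VG libraries and an ovary mean of 7343 (log2 ratio -3.11). Asf1 (Nasvi2EG005197), which passes H3 and H4 to other chaperones, had 244, 202 and 282 in the VG libraries and an ovary mean of 2550 (log2 ratio -3.39). A gene annotated as nucleosome assembly protein 1-like (Nasvi2EG006213), named for a chaperone of H2A and H2B, had 0 reads in all VG libraries and an ovary mean of 1163, so its VG level was at least 334-fold lower. The exception was the histone H4 transcription factor (Nasvi2EG007921), with 238, 229 and 209 in the VG libraries and an ovary mean of 180 (log2 ratio 0.32, negative on totals without the venom genes).

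The low level of these genes in the VG went with that of genes for DNA replication. Of 24 genes annotated as proliferating cell nuclear antigen, replication licensing factors, ribonucleoside-diphosphate reductase or replicative DNA polymerases, 20 were at least 2-fold lower in the VG, 0 were at least 2-fold higher and the median log2 ratio was -3.39. Their summed level was 4580 in the VG, against 37933 in the ovary. The part of this difference in the levels of histone supply genes was not tested.

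Histone methyltransferases were lower in the VG almost throughout. Of 21 models, 15 had a ratio, 13 were at least 2-fold lower in the VG, 0 were at least 2-fold higher and the median log2 ratio was -1.87. E(z) (Nasvi2EG030360), which methylates H3 for polycomb silencing, had 719, 400 and 816 in the VG libraries and an ovary mean of 3285 (log2 ratio -2.35). A model annotated as PR-set7 (Nasvi2EG003825), an H4 methyltransferase tied to the cell cycle, had 5.72, 20.0 and 20.9 in the VG libraries and an ovary mean of 792 (log2 ratio -5.67). Its numbering neighbour Nasvi2EG003824, with the same annotation, had 185, 184 and 139 in the VG libraries and an ovary mean of 373 (log2 ratio -1.14). These 2 models may be parts of 1 gene, which cannot be told from the files used here.

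Several other genes for writing methyl marks were also lower in the VG. Suv4-20 (Nasvi2EG009632), which adds further methyl groups to H4, had 467, 471 and 516 in the VG libraries and an ovary mean of 1537 (log2 ratio -1.67). The set1/Ash2 complex subunit ASH2 (Nasvi2EG007791), a core partner of H3 methyltransferases, had 85.8, 102 and 69.7 in the VG libraries and an ovary mean of 805 (log2 ratio -3.23). SETD1B (Nasvi2EG037178), a catalytic subunit of such a complex, averaged 737 in the VG and 1641 in the ovary. NSD2 (Nasvi2EG004836), an H3 methyltransferase, averaged 95.8 in the VG and 835 in the ovary, a log2 ratio of -3.12. Both arginine methyltransferase models annotated as CARMER, Nasvi2EG030143 and Nasvi2EG030446, were resolved in all libraries and lay below the ovary in every VG library. Nasvi2EG030143 had 36.2, 51.1 and 38.3 in the VG libraries, against 186, 164 and 194 in the ovary libraries.

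The methyltransferases that did not follow were an H3 lysine-79 specific enzyme (Nasvi2EG003026), with means of 1413 in the VG and 1161 in the ovary (log2 ratio 0.28), and a second Suv4-20 model (Nasvi2EG035129), with means of 45.0 in the VG and 41.7 in the ovary and overlapping libraries. Both ratios turn negative on totals without the venom genes. The 3 models annotated as SETMAR, a methyltransferase fused to a transposase in primates, had 2.75 in the VG and 0.129 in the ovary as summed means, below the floor in both tissues.

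Demethylases lay closer to equal levels. Of 11 models, all had a ratio, 4 were at least 2-fold lower in the VG (36.4%), 2 at least 2-fold higher and 5 neither. Over all genes with a ratio 29.8% were lower, a share near that of the demethylases, and 36.8% were higher. The median log2 ratio of the demethylases was -0.12. JARID1A (Nasvi2EG014348), an H3 demethylase, averaged 3226 in the VG, against 3504 in the ovary. The jmjC protein 2B (Nasvi2EG015486) averaged 3166 in the VG and 3792 in the ovary, and the jmjC protein 3B (Nasvi2EG001169) averaged 1302 in the VG and 1066 in the ovary. Nasvi2EG003109, also a jmjC protein, had 726, 306 and 366 in the VG libraries and an ovary mean of 369.5, which lies within the range of the VG libraries.

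UTX, which removes the methyl mark that E(z) writes, was the demethylase with the highest ratios. Nasvi2EG008784 had 429, 227 and 631 in the VG libraries, against 204, 198 and 205 in the ovary libraries. All VG libraries were above the ovary libraries, VG library b only just, and the log2 ratio of 1.08 turns negative on totals without the venom genes. The other UTX model, Nasvi2EG008473, had 21.0, 48.9 and 6.97 in the VG libraries, against 8.51, 9.31 and 7.39 in the ovary libraries, and the tissues overlapped. At the low end, jmjC protein 1D (Nasvi2EG008328) averaged 187 in the VG, against 743 in the ovary. The lysine-specific demethylase 1A model Nasvi2EG023095 had 11.4, 51.1 and 10.5 in the VG libraries, against 130, 132 and 116 in the ovary libraries (log2 ratio -2.37). Its neighbour Nasvi2EG023096, annotated alike, had 66.7, 202 and 122 in the VG libraries and an ovary mean of 313, and VG library b was the highest VG library in both.

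Acetyltransferases and their partners were lower in the VG in all 5 cases with a ratio, each by at least 2-fold, with a median log2 ratio of -2.18. The type B catalytic subunit (Nasvi2EG006070), which acetylates newly made histones before they reach DNA, had the lowest ratio, with 229, 178 and 282 in the VG libraries and an ovary mean of 1684 (log2 ratio -2.88). Tip60 (Nasvi2EG000377), an acetyltransferase in transcription and repair, had 116, 140 and 90.6 in the VG libraries and an ovary mean of 523. MYST1 (Nasvi2EG012431), an H4 acetyltransferase, had 391, 255 and 380 in the VG libraries and an ovary mean of 1047. Enhancer of polycomb (Nasvi2EG002875), a partner of Tip60, averaged 405 in the VG and 1237 in the ovary, and YNG2 (Nasvi2EG008068), known in yeast as a subunit of the same kind of complex, averaged 300.04 in the VG and 1652 in the ovary.

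Deacetylases held an exception among the chromatin genes. Histone deacetylase 4 (Nasvi2EG005012), a class of deacetylase that in other animals shuttles between cytoplasm and nucleus, averaged 8418 in the VG and 1318 in the ovary. Its log2 ratio of 2.68 is 6.39-fold, stays positive on totals without the venom genes, and has no known spread because both means are too high to resolve. The class I deacetylase Rpd3 (Nasvi2EG020714) went the other way, with 488, 686 and 429 in the VG libraries and an ovary mean of 3047 (log2 ratio -2.51). SAP130 (Nasvi2EG003227), a subunit of the complex around Rpd3, had 139, 233 and 146 in the VG libraries and an ovary mean of 1392 (log2 ratio -3.01), and SAP18 (Nasvi2EG022803) averaged 229 in the VG and 625 in the ovary. Over the 7 members, 4 were at least 2-fold lower in the VG and 1 at least 2-fold higher, with a median log2 ratio of -1.06. Among all genes with a ratio, 29.8% were lower and 36.8% higher. The summed level of the 7 members was 10397 in the VG and 8003 in the ovary, and deacetylase 4 alone sets that direction. The log2 ratio of these sums, 0.38, turns negative on totals without the venom genes.

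Remodelling genes were lower in the VG with few exceptions. Of 20 members, 19 had a ratio, 12 were at least 2-fold lower in the VG and 0 were at least 2-fold higher. The shares over all genes were 29.8% and 36.8%. In this class 18 log2 ratios were below 0, with a median of -1.34. Iswi (Nasvi2EG011564), the ATPase that spaces nucleosomes, had 759, 839 and 561 in the VG libraries and an ovary mean of 3381 (log2 ratio -2.23). The chromatin accessibility complex protein 1 (Nasvi2EG019639), a small histone-fold partner of Iswi, had 22.9, 28.9 and 20.9 in the VG libraries and an ovary mean of 569 (log2 ratio -4.55), which was the lowest ratio of the group. Mi-2 (Nasvi2EG004970), the chromodomain ATPase of a deacetylase complex, averaged 2023 in the VG and 6617 in the ovary. NURF301 (Nasvi2EG004919), the large partner of Iswi in the nucleosome remodelling factor, averaged 1479 in the VG and 3755 in the ovary.

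Within the genes annotated as SWI/SNF-related, 6 of 8 with a ratio were at least 2-fold lower in the VG. This grouping follows the annotation words and does not place each gene in the SWI/SNF complex. A model annotated as subfamily A protein 1 (Nasvi2EG035818) had 22.9, 15.5 and 20.9 in the VG libraries, against 139, 149 and 164 in the ovary libraries (log2 ratio -2.93). A second model with that annotation, Nasvi2EG003767, averaged 42.5 in the VG, against 326 in the ovary. The subfamily B member 1 gene (Nasvi2EG009373), named for a core subunit of the SWI/SNF complex, had 749, 615 and 816 in the VG libraries and an ovary mean of 692. It was the only remodelling gene with a log2 ratio above 0 (0.07, negative on totals without the venom genes).

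**Figure D4:**
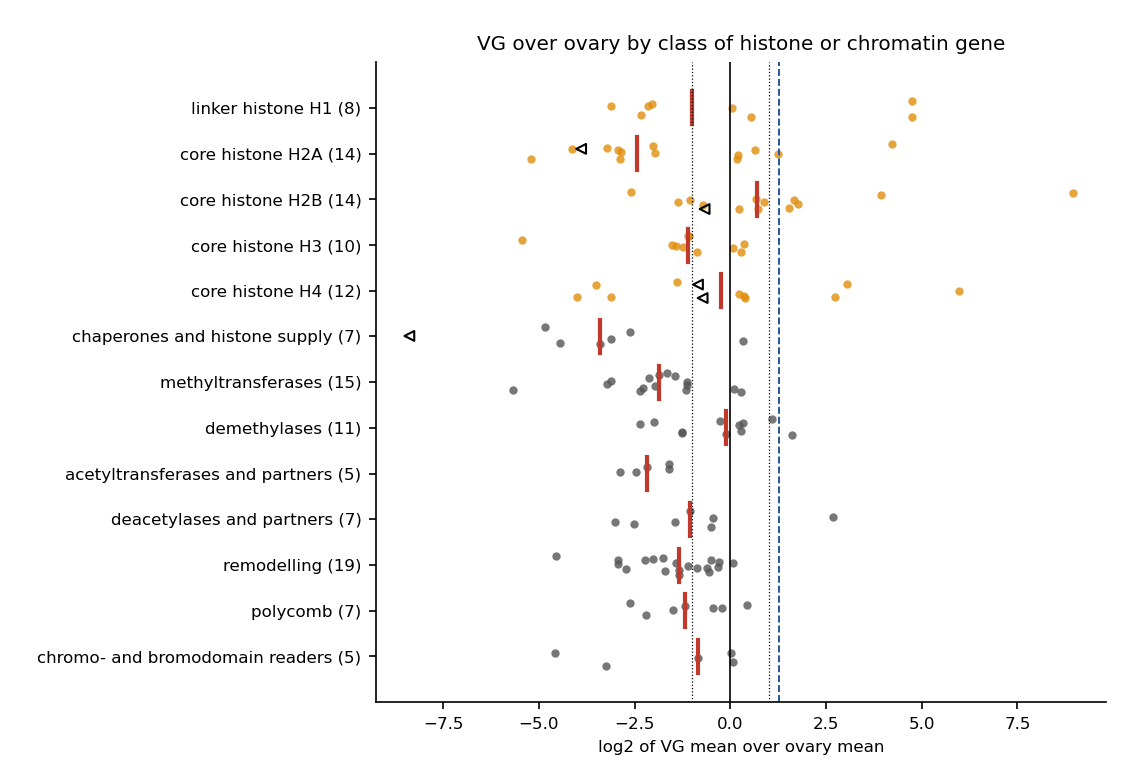
Log2 ratio of VG over ovary for each member with a ratio, by class, with the number of genes in brackets. Red bars are medians, dotted lines mark 2-fold, open triangles are bounds for genes without a VG read, and the dashed line marks where a ratio of 0 would fall on totals without the venom genes. Every class has its median below 0 except H2B, and the medians of demethylases (-0.12) and H4 (-0.25) lie nearest to 0 among the others.

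Polycomb genes, which keep genes silent through development, were divided between lower and similar levels. Of 10 models, 7 had a ratio and 4 were at least 2-fold lower in the VG, where 29.8% of all genes with a ratio were. Psc (Nasvi2EG011952), a subunit of the ubiquitin-writing complex, had 204, 200 and 188 in the VG libraries and an ovary mean of 1213 (log2 ratio -2.62). Eed (Nasvi2EG003933), the partner of E(z), had 231, 131 and 188 in the VG libraries and an ovary mean of 843 (log2 ratio -2.20). Sfmbt (Nasvi2EG009753), a DNA-recruited polycomb protein, averaged 347 in the VG, against 982 in the ovary. The polycomb group RING finger protein 3 (Nasvi2EG023770) was the exception, with 234, 380 and 216 in the VG libraries and an ovary mean of 204 (log2 ratio 0.44, negative on totals without the venom genes). A model annotated as Suz12 (Nasvi2EG000248), the further partner of E(z), had 0 reads in all 6 libraries, which allows a mean of up to 3.49 in the VG and 0.435 in the ovary.

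Chromobox proteins, which bind methylated H3 in heterochromatin, were low in the VG or similar in both tissues. Chromobox protein homolog 1 (Nasvi2EG000123) had 376, 284 and 397 in the VG libraries and an ovary mean of 8385 (log2 ratio -4.57). A model annotated as chromobox 5 (Nasvi2EG022694) had 499, 537 and 460 in the VG libraries and an ovary mean of 4768 (log2 ratio -3.26). Another chromobox gene, Nasvi2EG002385, had 1172, 653 and 1150 in the VG libraries and an ovary mean of 973, and Nasvi2EG008809 averaged 346 in the VG and 620 in the ovary. Within this family, then, 2 genes were at least 2-fold lower in the VG and 2 were within 2-fold. The chromodomain Y protein 2 model (Nasvi2EG030779) averaged 1279 in the VG and 1223 in the ovary. Of the remaining members, the nucleosomal histone kinase 1 (Nasvi2EG003048), which phosphorylates H2A in *Drosophila*, averaged 215 in the VG and 752 in the ovary, and the apoptotic chromatin condensation inducer (Nasvi2EG002862) averaged 1831 in the VG and 2258 in the ovary.

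**Figure D5:**
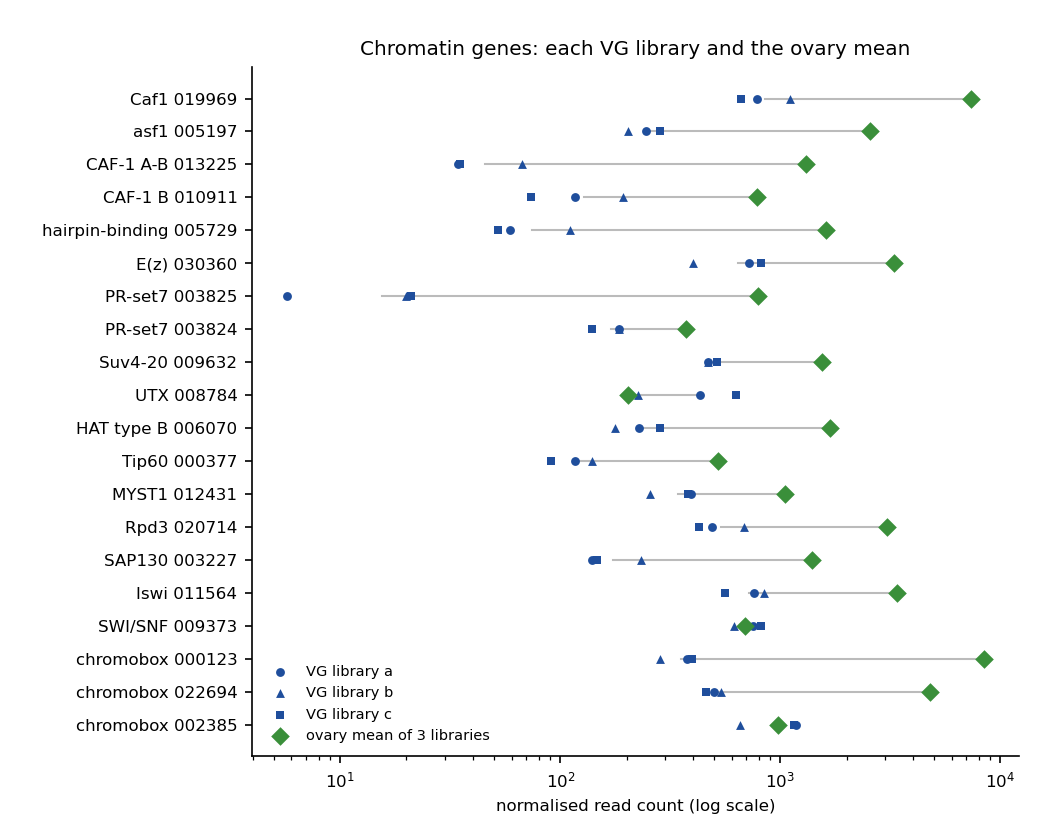
Normalised read counts (logarithmic axis) of 20 chromatin genes in VG libraries a, b and c (blue circle, triangle and square) and the ovary mean of 3 libraries (green diamond), whose libraries are resolved only for UTX (Nasvi2EG008784). Grey lines join the tissue means. The ovary mean lies above every VG library except for UTX, the SWI/SNF gene Nasvi2EG009373 and the chromobox gene Nasvi2EG002385. VG library b is the highest VG library for Caf1, CAF-1 A-B, CAF-1 B and the hairpin-binding protein. It is also the highest for Tip60, Rpd3, SAP130, Iswi and the chromobox gene Nasvi2EG022694, and not for the other genes drawn.

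The VG libraries were not alike in their content of ovary-type RNA. Vasa (Nasvi2EG015483), a germ line helicase, had 15.3, 82.2 and 20.9 normalised counts in VG libraries a, b and c, against an ovary mean of 9788. Aubergine (Nasvi2EG004772), a germ line piRNA protein, had 51.5, 342 and 94.1 in the VG libraries, against an ovary mean of 18321. Oskar had 7.63, 6.66 and 10.5 in VG libraries a, b and c, and vitellogenin receptor had 284, 244 and 216. Neither was highest in library b, which was the highest VG library for 5 of the 8 ovary markers. Summed over 8 ovary marker genes, VG libraries a, b and c held 1.38%, 2.06% and 1.19% of the ovary level. For comparison, the chromatin genes that were at least 2-fold lower in the VG, held to resolved VG reads and a minimum VG mean of 10 (47 genes other than histones), summed to 19.1%, 19.3% and 17.8% of their ovary level in these libraries, and 23 of the 47 were highest in library b, as were 1089 of all 2635 genes chosen in the same way. Leaving out VG library b gave 68 members at least 2-fold lower and 10 at least 2-fold higher among the 121 with resolved VG reads, where all 3 libraries gave 73 and 12. It also took away 1 of the 2 chromatin genes other than histones that were at least 2-fold higher in these counts, and leaving out library c did the same. Fat body genes were higher in the VG. Of 15 with a ratio, 9 were at least 2-fold higher and 4 lower, beside 36.8% and 29.8% of all genes with a ratio. The fat body genes had a summed level of 116499 in the VG and 9202 in the ovary. Most of the VG sum came from a vitellogenin (Nasvi2EG010626, 100996 in the VG, against 3710 in the ovary). The part of these cells in the high VG levels of the H1 pair and deacetylase 4 was not tested.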

How the data were processed

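Each VG and ovary library was made from poly-T selected RNA with a stranded kit and sequenced in pairs. After trimming, the authors used Tophat2 for mapping, HTSeq-count (union mode, exons, stranded) for counts per gene and DESeq for scaling. The sources used here name no genome build. The deposited values used here are a signal that the authors made from read counts, divided by a size factor per library and averaged over the 3 libraries of a tissue. The table's further columns hold the authors' own fold changes (linear and log2), p-values and adjusted p-values, and were not used. The tissue of each column was taken from the headings of the study's additional file.

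Because each mean is a sum of whole reads times a fixed step per library, reads per library were recovered where a single combination existed, which held for every VG mean below 1000.08 (14115 genes) and every ovary mean below 103.083 (11228 genes). The recovery was tested on simulated low means with steps of the size found in the ovary. It was not tested with the larger steps of the VG or with VG means as high as those resolved here. Recovered size factors were 0.287 to 0.525 in the VG and 2.30 to 2.58 in the ovary, and library totals were not computed. Libraries of 1 tissue are separate pools of wasps. Only 56.8% of genes past the floor were resolved in both tissues, under the 80% set for a limma fit, so no test was run, and 3 against 3 libraries cannot give a two-sided exact permutation p under 0.1. Ratios are log2 of VG over ovary means. A mean of 0 was set to a floor of 3 reads, and where that left the floor above the other tissue's mean no ratio was given (798 genes, 5 members), which departs from the design. Genes under the floor in both tissues got no ratio. Ratios on 1 to 3 reads carry exact binomial 95% intervals (scipy 1.17.1), for counting error only.

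Members and lists were chosen with earlier results of these data known. Named members are, per class, all if 5 or fewer had a mean of at least 10, otherwise the 3 highest and the 3 largest ratios in each direction, plus the 10 largest ratios in each direction overall (84 genes). Members named beyond it were picked with their values in view. Marker and replication lists were made from annotation words, without non-muscle myosin, and 79 venom genes from the study. Muscle genes had 1 of 16 at least 2-fold lower in the VG and 3 higher, and nerve genes 4 of 15 lower and 5 higher. Alternatives were other scalings, filters, folds, a pseudocount of 1 and leaving out each library. Python 3.11.15, numpy 2.4.6, pandas 2.3.3 and matplotlib 3.10.9 were used.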

Additional observations from a re-analysis of the deposited data

How the results depend on the processing

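On totals without the venom genes the median log2 ratio was -2.50 for all members, -2.00 for histones and -2.73 for the other chromatin genes. Members at least 2-fold higher in the VG then numbered 9, and 1 of the other chromatin genes. On that scaling 52.5% of all genes with a ratio were at least 2-fold lower and 3130 of 14219 at least 2-fold higher, and 27 of 136 members changed sign. With no filter on low values the histone median was 0.062, and 23 members and 6 other chromatin genes were at least 2-fold higher. At 4-fold, 45 members, 17 histones and 28 other chromatin genes were lower, and 9 members and 1 other chromatin gene were higher. Centring on the median gene, a minimum mean of 10 and a pseudocount of 1 kept each of these counts within 1.5 times and each median within the spread between libraries (0.60 on the log2 scale). Leaving out 1 library gave 68 to 69 members lower and 10 to 13 higher where VG reads were resolved (main values 73 and 12), and 1 to 2 other chromatin genes higher (2). The limma fits and their alternatives were not run, as too few genes were resolved. No paired analysis was possible because the deposited columns are tissue means and the recovered libraries carry no replicate numbers. Depth limits low VG genes, and abundant genes have no known spread.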
